A study of Mus musculus with 35 samples.

Results

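The integrated stress response genes described here are 10 named genes, Chac1, Trib3, Ddit3, Atf3, Atf4, Atf5, Asns, Sesn2, Ddit4 and Psat1, among the 54446 genes of the expression table. Their rows were found by gene symbol, and the set was drawn up because Chac1 and Trib3 were known to be high in the 3D cultures of these same data. The levels of the members in the 3D cultures relative to the other cultures are therefore given as a description, without a test. The symbol Ddit3 stood on a second row with another identifier, which reached at most 0.744 TPM and was left out. Gene positions below are those of the table, on mm10. TPM is a level per length of transcript, scaled to the same total in every library, so that it can be compared between genes of a library.

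Bulk RNA-seq libraries of mouse cells were used, 3 for each of 9 groups, all labeled wild-type. ESC-derived 3D EpiSCs are epiblast stem cells grown as spheroids in Matrigel from embryonic stem cells, and embryo-derived 3D EpiSCs were started from E5.5 epiblasts. Both were cultured with FGF2, ActivinA, XAV (a tankyrase inhibitor that lowers Wnt signaling) and Noggin (a BMP antagonist). 2D EpiSCs were converted from ESCs with FGF2 and ActivinA, and EpiLCs, epiblast-like cells, were ESCs kept for 48 h in FGF2 and ActivinA. The methods list non-essential amino acids in the base medium of 2D EpiSCs and do not list them in the medium of the 3D cultures. They give a fibronectin coating for 2D EpiSCs and a higher ActivinA dose for the 3D cultures. Culture format, substrate, factors and base medium thus changed together. The methods passage 3D cultures with dispase and TrypLE, and 2D EpiSCs with TrypLE alone. They do not say how spheroids were freed from Matrigel for these libraries, so harvest may have differed too. They name LifeAct-GFP and wild-type CD-1 embryos as the source of embryo-derived cultures, while the other cultures came from ESCs. In comparisons with embryo-derived 3D EpiSCs the source of the cells therefore changed too, and the mouse line may have. The 5 groups in vivo were untreated embryos, labeled as CD-1 and of either sex: E3.5 inner cell masses freed of trophectoderm by laser, E4.5 epiblast cells, and dissected epiblasts of E5.5, E6.5 and E7.5, each library a pool of embryos. E4.5 cells went through immunosurgery and trypsin and were picked by hand, and by the methods a Pdgfrα:H2B-GFP line served at that stage to leave out primitive endoderm. The names of these 5 groups follow the labels and methods. Their libraries also held markers of trophoblast and endoderm, given below, so differences between stages need not lie within the named tissue. The question for these genes is where along the stages and the cultures the stress program is high, and which of its members follow Chac1 and Trib3.

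The integrated stress response is a shared endpoint of several kinases that sense amino acid shortage, unfolded protein in the endoplasmic reticulum (ER), double-stranded RNA or heme shortage. Each phosphorylates the initiation factor eIF2α, which lowers bulk translation and favors translation of a few mRNAs, Atf4 the best known. ATF4 protein then raises genes for amino acid synthesis and import, tRNA charging and feedback. Because Atf4 is largely controlled by translation, its mRNA is an indirect measure of the pathway, and protein was not measured.

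ATF4 binds composite elements with C/EBP partners, commonly written TGATGNAA, together with its reverse complement TTNCATCA. RefSeq windows of 300 bases, 250 before and 50 after each gene start (GRCm38.p6), were searched on both strands. A match was found in 4 of the 12 windows of the members, which belong to 4 of the 10 members, and in 3.97% of all 32851 windows. The stretches are shown because these 4 members, Chac1, Atf3, Trib3 and Asns, held the match. Each is printed on the strand of the gene with the match in capitals.
Chac1, chr2:119351023-119351082, + strand: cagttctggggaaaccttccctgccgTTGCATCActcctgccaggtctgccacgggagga
Atf3, chr1:191183410-191183469, − strand: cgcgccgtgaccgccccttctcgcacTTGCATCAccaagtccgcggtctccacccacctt
Trib3, chr2:152344028-152344057, − strand: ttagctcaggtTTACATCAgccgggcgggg
Asns, chr6:7693210-7693258, − strand: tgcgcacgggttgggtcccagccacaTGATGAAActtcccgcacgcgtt
By the RefSeq starts, the matches began 193 bases before the gene in Chac1, 110 before it in Atf3 and 23 before it in Asns, and at base 15 of the transcribed part in Trib3. The gene bounds of the expression table differ from these starts. By them the matches of Atf3 and Asns lie inside the gene, and those of Trib3 and Chac1 before it. Chac1 and Atf3 held the narrower form TGATGCAA on the reverse strand, which 0.895% of all windows held. The windows of Ddit3, Atf4, Atf5, Sesn2, Ddit4 and Psat1 held no match, which says only that these letters were not in these windows.

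Some libraries stood closer together than others. Replicates 1 and 2 of ESC-derived 3D EpiSCs, 2 and 3 of embryo-derived 3D EpiSCs, and 1 and 2 of 2D EpiSCs had median absolute log2 differences of 0.0569 to 0.0649, against 0.131 to 0.271 in the other 9 pairs in vitro and 0.103 to 0.222 in the 15 pairs in vivo. The labels do not say whether replicates were separate cultures, so spread and p-values cover these libraries only, and values with the close pairs averaged are given where they change a count. The table keeps no record of depth, and 20324 to 26751 genes were above 0 TPM per library. All 5 pluripotent epiblast markers exceeded 2 TPM in every group except E3.5, where 4 did. Endoderm markers (6 genes) summed to 28.8 to 37.3 TPM in 2D EpiSCs, from Sox17 (mean 25.0 TPM) and Gata4 (8.23 TPM) with Afp at 0, against 0.567 to 7.64 TPM in ESC-derived and 4.53 to 11.7 TPM in embryo-derived 3D EpiSCs and 0.899 to 1.02 TPM in EpiLCs. Their part in the differences from 2D EpiSCs was not tested. In vivo the same markers summed to 229 to 235 TPM at E3.5, 57.4 to 72.3 TPM at E4.5 and 252 to 280 TPM at E5.5. At E6.5 they summed to 406 to 410 TPM and at E7.5 to 455 to 479 TPM. Trophoblast markers (4 genes) summed to at most 11.2 TPM in vitro, to 411 to 433 TPM at E3.5, 263 to 272 TPM at E4.5, 9.82 to 12.2 TPM at E5.5, 18.7 to 25.2 TPM at E6.5 and 143 to 155 TPM at E7.5. The 4 did not move together: from E3.5 to E4.5 mean levels of Cdx2 (161 to 23.7 TPM) and Gata3 (212 to 87.8 TPM) were lower, and those of Elf5 (49.7 to 127 TPM) and Hand1 (1.17 to 29.6 TPM) higher. At E7.5 the sum came mostly from Hand1 (82.0 TPM) and Cdx2 (56.7 TPM), which mesoderm also expresses, with Elf5 at most 0.579 TPM.

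Chac1 (chr2:119351229-119354381), which degrades glutathione, was at 70.7, 71.0 and 93.1 TPM in ESC-derived and 97.3, 121 and 114 TPM in embryo-derived 3D EpiSCs. It was at 3.40, 3.02 and 5.33 TPM in 2D EpiSCs and 7.71, 21.7 and 2.31 TPM in EpiLCs. All 6 libraries of 3D EpiSCs lay above all 6 others, and EpiLC replicate 2 was the highest of the others. The mean TPM was 20.0 times that of 2D EpiSCs in ESC-derived and 28.3 times in embryo-derived 3D EpiSCs, and 7.40 and 10.5 times that of EpiLCs. Trib3 (chr2:152337422-152344032), a pseudokinase that ATF4 and CHOP induce and that restrains both, was at 56.1, 51.4 and 76.8 TPM in ESC-derived and 66.7, 180.5 and 180.2 TPM in embryo-derived 3D EpiSCs. Its levels were 8.88, 9.68 and 11.1 TPM in 2D EpiSCs and 13.7, 28.3 and 6.82 TPM in EpiLCs. Again the 3D libraries did not overlap with the others, and embryo-derived replicate 1 stood with the ESC-derived libraries rather than with its own group. These are the levels that the choice of the set rests on.

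**Figure D1:**
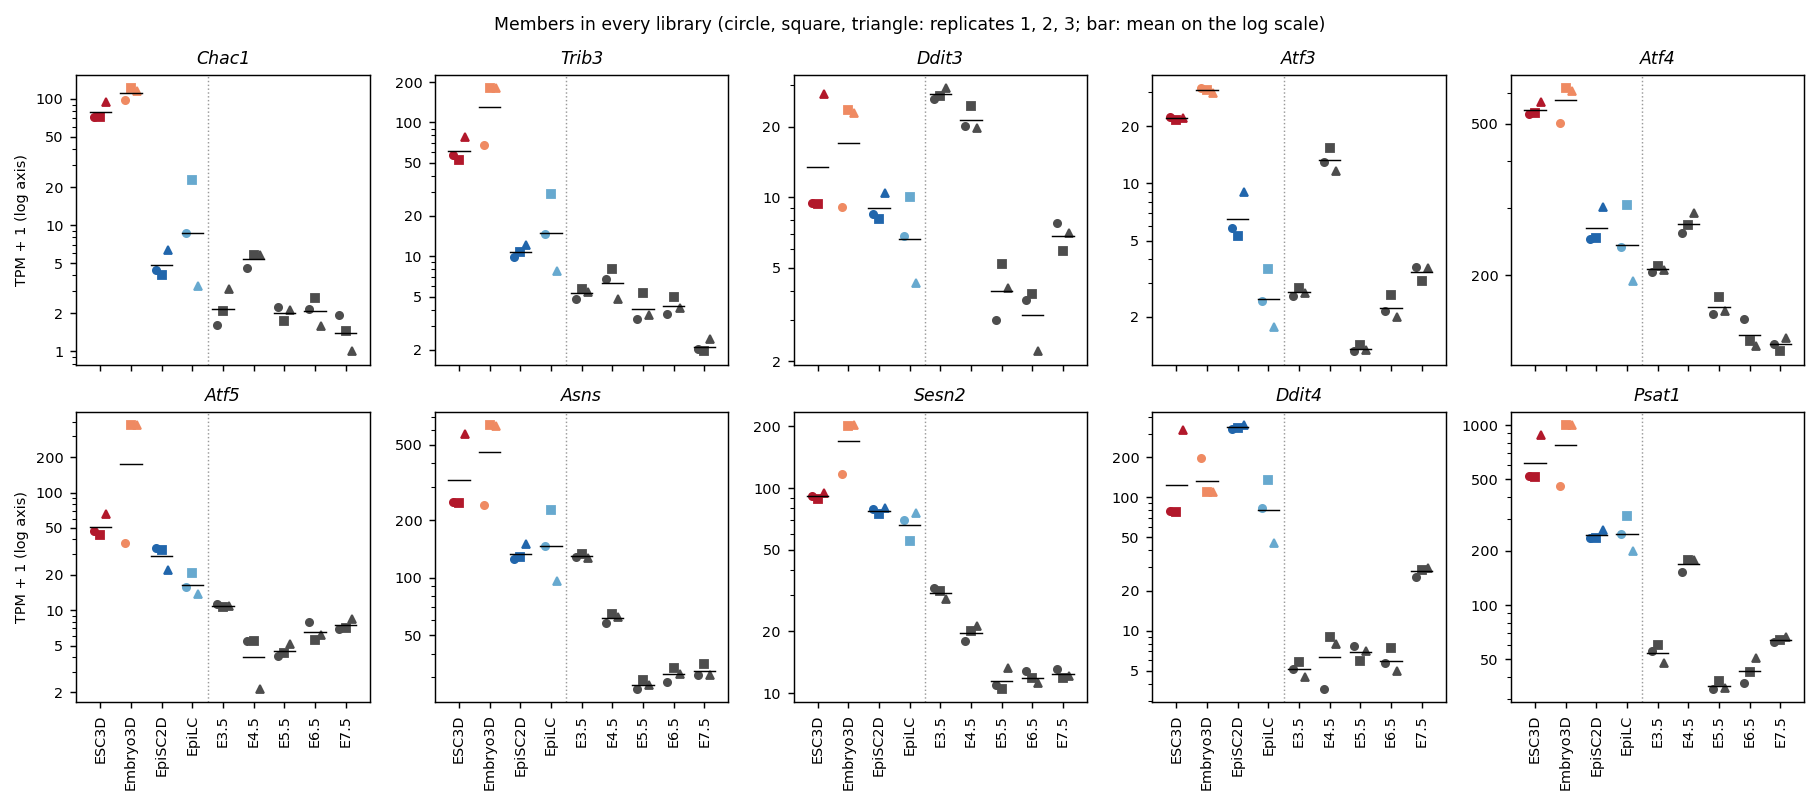
TPM + 1 (log axis, scaled separately for each gene) of the 10 members in each of the 27 libraries, with the cultures left of the dotted line and the embryonic stages right of it. Circles, squares and triangles are replicates 1, 2 and 3, and bars are means on the log scale. Chac1 and Trib3 sit above 50 TPM in all 6 libraries of 3D EpiSCs and below 30 TPM elsewhere.

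The transcription factors of the set did not share one pattern in culture. Atf4 itself (chr15:80255184-80257541) had a high mRNA level throughout, at 529.7, 532 and 567 TPM in ESC-derived and 502, 619.7 and 608 TPM in embryo-derived 3D EpiSCs. It was at 248, 249.5 and 301 TPM in 2D EpiSCs and 236, 304 and 192 TPM in EpiLCs. Every 3D library exceeded every other culture, by a ratio of means of 2.04 to 2.36. Atf3 (chr1:191170296-191218039), a repressor-type factor of the same bZIP family that stress and growth factors induce, was at 21.2, 20.5 and 21.0 TPM in ESC-derived and 30.8, 29.8 and 29.0 TPM in embryo-derived 3D EpiSCs. The other cultures held 4.80, 4.31 and 8.04 TPM (2D EpiSCs) and 1.40, 2.57 and 0.768 TPM (EpiLCs). All 4 cultures were apart for Atf3, in the order embryo-derived 3D EpiSCs, ESC-derived 3D EpiSCs, 2D EpiSCs and EpiLCs.

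Ddit3 and Atf5 differed widely between libraries of 3D EpiSCs. Ddit3 (chr10:127290774-127296288), which encodes CHOP, a factor tied to cell death in prolonged stress, was at 8.50, 8.36 and 26.6 TPM in ESC-derived and 8.12, 22.6 and 21.9 TPM in embryo-derived 3D EpiSCs. With 7.47, 7.11 and 9.48 TPM in 2D EpiSCs and 5.83, 9.03 and 3.33 TPM in EpiLCs, 3 of the 6 libraries of 3D EpiSCs were within the range of the other cultures. Atf5 (chr7:44812256-44816658), whose mRNA is favored by the same translational switch as Atf4, was at 45.7, 42.6 and 64.5 TPM in ESC-derived and 36.5, 373 and 375 TPM in embryo-derived 3D EpiSCs. The levels were 32.9, 31.6 and 21.0 TPM in 2D EpiSCs and 14.7, 19.7 and 12.9 TPM in EpiLCs, so that all 6 libraries of 3D EpiSCs lay above all others. The mean of 262 ± 195 TPM (SD, n = 3) in embryo-derived 3D EpiSCs lay between replicate 1 and the other libraries of the group.

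Asns (chr6:7675169-7693254), the asparagine synthetase, was at 249.5, 246 and 569 TPM in ESC-derived and 241, 634 and 625 TPM in embryo-derived 3D EpiSCs, against 124 to 149 TPM in 2D EpiSCs and 94.8 to 227 TPM in EpiLCs. Psat1 (chr19:15904678-15947337), which makes phosphoserine on the way to serine, was at 519, 516 and 876 TPM and at 459.5, 1002 and 999.9 TPM, against 234 to 261 TPM in 2D EpiSCs and 199 to 314 TPM in EpiLCs. For both enzymes the lowest 3D library lay above the highest of the other cultures, and the upper levels came from ESC-derived replicate 3 and embryo-derived replicates 2 and 3.

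The 2 brakes on mTORC1, the kinase complex that promotes growth, went different ways. Sesn2 (chr4:132492032-132510501), which senses leucine, was at 90.2, 87.6 and 93.5 TPM in ESC-derived, 117, 200.3 and 202 TPM in embryo-derived 3D EpiSCs, 73.5 to 79.0 TPM in 2D EpiSCs and 54.4 to 74.9 TPM in EpiLCs. Ddit4 (REDD1, chr10:59949669-59951834), which low oxygen and glucocorticoids also induce, was highest in 2D EpiSCs, at 323, 328 and 347 TPM. It was at 77.6, 76.0 and 319 TPM in ESC-derived, 195, 108 and 109 TPM in embryo-derived 3D EpiSCs and 81.7, 133 and 44.6 TPM in EpiLCs. Ddit4 was the single member below 2D EpiSCs in both 3D cultures, with log2 differences of -1.42 ± 0.51 and -1.33 ± 0.51 (± SE).

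All 10 members passed the low-value filter in vitro, a TPM above 2 in at least 3 libraries. Both criteria had to be met for a call, adjusted p below 0.05 in limma and an absolute difference over 1 in log2(TPM + 1), a scale that understates changes of low genes. The contrasts of 3D EpiSCs with the other cultures chose the set, so the counts are a description and nothing is read from them. Against 2D EpiSCs, 6 members were called higher in ESC-derived 3D EpiSCs, where 0.633% of 11541 genes were, and 1, Ddit4, was called lower, as were 9.25% of all genes. In embryo-derived 3D EpiSCs 8 were called higher, beside 1.07% of all genes. Against EpiLCs the counts were 6 in ESC-derived (5.33% of all genes) and 9 in embryo-derived 3D EpiSCs (10.5%). Libraries did not overlap, with the 3D culture higher, for 8 members in each of these comparisons, beside 13.9%, 20.9%, 26.3% and 38.4% of all genes. Averaging the close pairs lowered 7 called members to 5 in ESC-derived and 8 to 5 in embryo-derived 3D EpiSCs against 2D EpiSCs, and leaving out 2D EpiSC replicate 1 or 2 left 4 in ESC-derived 3D EpiSCs.

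**Figure D2:**
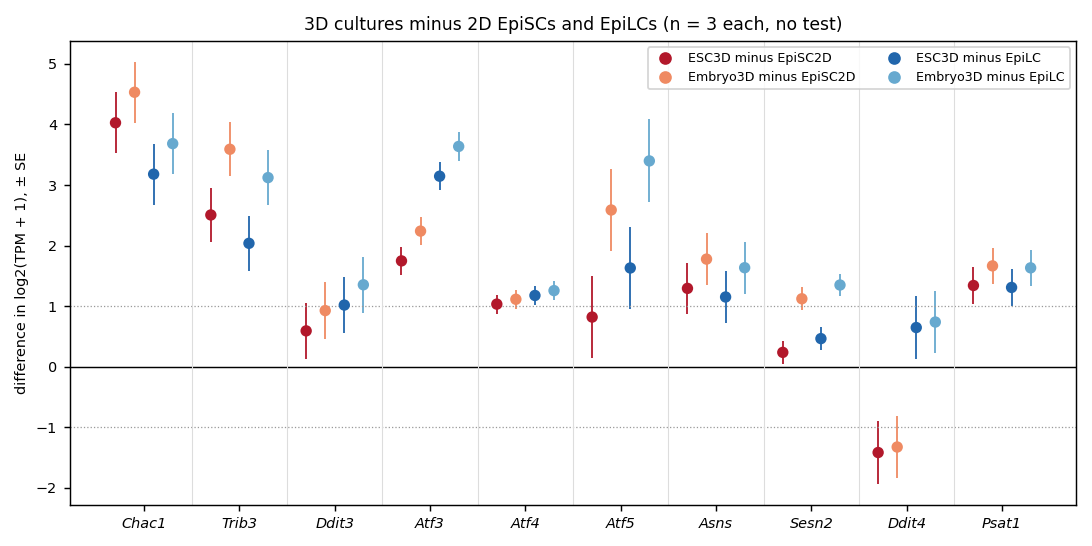
Difference in log2(TPM + 1) between each 3D culture and 2D EpiSCs or EpiLCs for the 10 members (y axis), with bars of 1 SE from limma and 3 libraries a group. Chac1 has the largest difference from 2D EpiSCs in both 3D cultures, 4.03 and 4.53, and Ddit4 alone lies below 0 against 2D EpiSCs.

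The choice of the set did not use the difference between the 3D cultures, which was tested. No member was called (3.96% of all genes were), although 3 members, Trib3, Atf5 and Sesn2, had an unadjusted p below 0.05 in limma, as did 37.5% of all genes. Libraries were apart for Chac1, Atf3 and Sesn2 (3 members, 26.2% of all genes lower in this way). All 10 differences, ESC-derived minus embryo-derived, were negative, while the median over all tested genes was -0.12. When libraries were rescaled by median-of-ratios factors the signs of Atf4 and Ddit4 turned, and with close pairs averaged those of Ddit3 and Ddit4. Sesn2 differed by -0.89 ± 0.19 (SE, limma adjusted p = 0.00886), short of the required size, and its ESC-derived libraries were all below its embryo-derived ones. Trib3 differed by -1.09 ± 0.45 (adjusted p = 0.104) and Atf5 by -1.77 ± 0.68 (adjusted p = 0.0866), with overlapping libraries in both. Chac1 differed by -0.50 ± 0.50 and Atf4 by -0.08 ± 0.16, which does not show that their levels are equal. Without embryo-derived replicate 1, 3 members were called lower in ESC-derived 3D EpiSCs: Trib3 (-1.56), Atf5 (-2.88) and Sesn2 (-1.15).

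Libraries of a group also differed in most members at once. ESC-derived replicate 3 exceeded replicates 1 and 2 in 9 of 10 members, where 60.5% of all genes showed this order, and by more than 2 times their mean in Ddit3, Asns and Ddit4 (3 members, 7.52% of all genes). Embryo-derived replicate 1 was below replicates 2 and 3 in 8 members (45.0% of all genes), and above them in Atf3 and Ddit4. For 5 members, Trib3, Ddit3, Atf5, Asns and Psat1, it was under 0.5 times their mean, which was so for 2.63% of all genes, and for Atf5 the ratio of replicates 2 and 3 to replicate 1 was 10.3. Chac1 and Atf4 moved less, with ratios of 1.21 and 1.22. In EpiLCs, replicate 2 was above 1 and 1 above 3 in 9 members, an order found in 19.3% of all genes, and the ratio of replicate 2 to 3 reached 9.42 for Chac1 and 4.16 for Trib3. Sesn2 was the member that did not follow it, with a ratio of 0.727. These orders were noticed in the data and have no test.

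**Figure D3:**
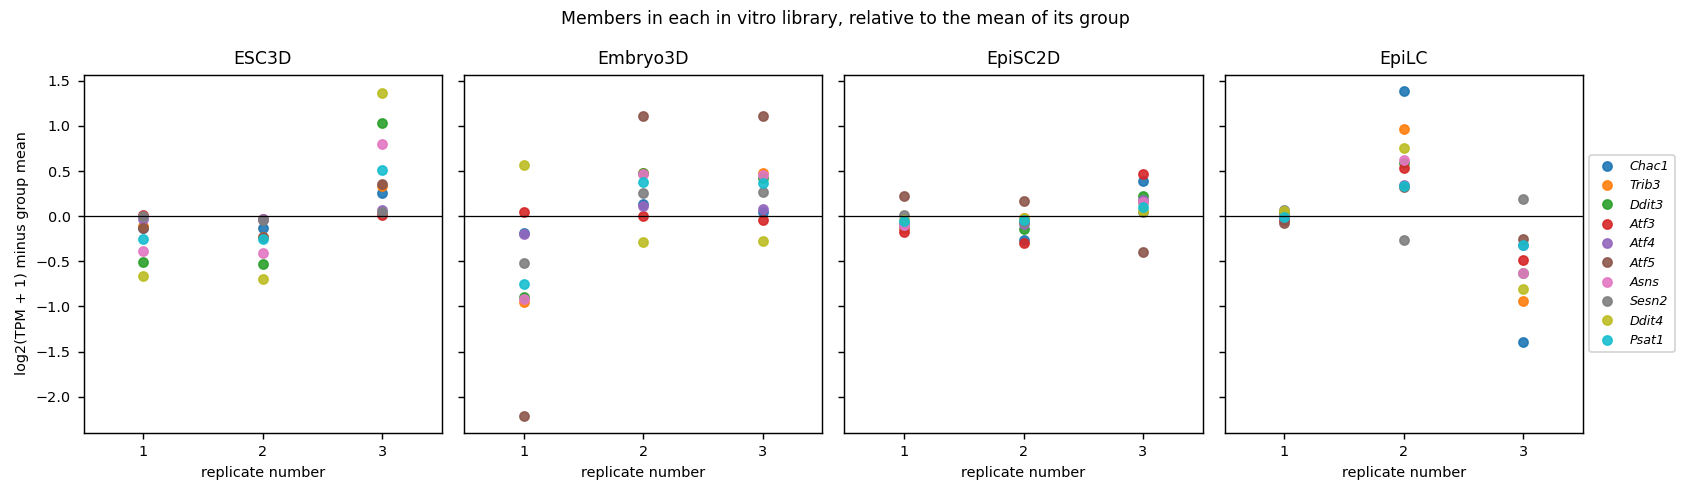
Deviation of each member's log2(TPM + 1) from the mean of its group (y axis) in the 3 replicates (x axis) of each in vitro group, 1 point a gene. ESC-derived replicate 3, embryo-derived replicates 2 and 3, and EpiLC replicate 2 hold most members above 0, while Ddit4 and Atf3 run against the others in embryo-derived 3D EpiSCs and Sesn2 in EpiLCs.

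2D EpiSCs and EpiLCs, a comparison outside the rule that chose the set, differed in 2 members. Atf3 was higher in 2D EpiSCs by 1.40 ± 0.23 (adjusted p = 3.42e-04) and Ddit4 by 2.07 ± 0.51 (adjusted p = 0.00478), beside 15.2% of all genes called higher. Libraries were apart for both and for Atf5, 3 members in all, as they were for 45.5% of all genes. Chac1 differed by -0.85 ± 0.50 (adjusted p = 0.166) and Trib3 by -0.47 ± 0.45 (adjusted p = 0.392), values within the spread of their libraries. Without EpiLC replicate 3, the library in which Chac1 and Trib3 were lowest, Chac1 was called lower in 2D EpiSCs (-1.55, adjusted p = 0.00329). Hypoxia targets, of which Ddit4 is commonly counted as a further one, were higher in 2D EpiSCs in 6 of 9 tested. So were 6 of 9 immediate early genes, a class that Atf3 is often counted in. Other ATF4 targets were higher in 4 of 11 and lower in 1 (593 of 11541 genes were lower). Heat shock genes were higher in 2 of 8 and amino acid synthesis genes in 2 of 12, with TPM rescaled 0 and 1. The remaining lists held no called gene. The part of oxygen or growth factors in Ddit4 and Atf3 was not tested.

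The rest of the pathway was read from lists of other genes, drawn up with earlier results of these data known, the levels of the members among them. The p-values of these genes in contrasts of 3D EpiSCs are therefore no independent test of the pattern of the members. Of all genes, 0.633% were called higher in ESC-derived and 1.07% in embryo-derived 3D EpiSCs against 2D EpiSCs, and 9.25% and 7.75% lower. Among 12 enzymes of serine, glycine, folate and other amino acid synthesis, 5 rose in ESC-derived 3D EpiSCs against 2D EpiSCs and 6 in embryo-derived 3D EpiSCs, and none fell. Mthfd2, the mitochondrial folate enzyme, was at 216, 216 and 291 TPM in ESC-derived and 195, 321 and 326 TPM in embryo-derived 3D EpiSCs, against 65.7, 67.3 and 82.7 TPM in 2D EpiSCs (log2 difference 1.73 ± 0.25 and 1.92 ± 0.25, adjusted p = 3.46e-04 and 1.68e-04). Shmt2, which turns serine to glycine, rose by 1.33 ± 0.27 and 1.80 ± 0.27 (adjusted p = 0.00252 and 4.06e-04). The medians over the list were 0.88 and 1.38, against -0.21 and -0.08 over all tested genes. Against EpiLCs 4 of the 12 rose in ESC-derived 3D EpiSCs (1 without their replicate 3 or EpiLC replicate 3) and 7 in embryo-derived 3D EpiSCs, beside 5.33% and 10.5% of all genes. The 5 and the 4 in ESC-derived 3D EpiSCs include Aldh1l2, at 1.94, 1.78 and 8.49 TPM there. It was at 0.339 to 0.377 TPM in 2D EpiSCs and 0.278 to 0.678 TPM in EpiLCs. As it passed the low-value filter only through 3D libraries, its calls add nothing to these counts.

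Amino acid transporters rose in 3 of 8 tested in ESC-derived and 7 of 8 in embryo-derived 3D EpiSCs against 2D EpiSCs, and in 3 and 5 against EpiLCs. Slc7a11, the cystine importer, went from 0.200, 0.183 and 0.0869 TPM in 2D EpiSCs to 3.56, 3.10 and 4.36 TPM in ESC-derived and 2.69, 9.12 and 8.51 TPM in embryo-derived 3D EpiSCs, a low level in every culture. With 0.281 to 0.660 TPM in EpiLCs, it passed the low-value filter only through 3D libraries. Slc7a11 therefore had to differ, and its calls, counted in all of these comparisons, add nothing. Slc7a5 and Slc3a2, the partners of the importer of leucine and other large amino acids, rose by 1.53 ± 0.27 and 1.17 ± 0.22 in ESC-derived 3D EpiSCs (adjusted p = 0.00113 and 0.00185). Of 13 tRNA charging genes, 5 rose in embryo-derived 3D EpiSCs, led by Nars, Cars, Gars and Sars. In ESC-derived 3D EpiSCs none was called by limma, though 9 had an unadjusted p below 0.05, with a list median of 0.69. The 5 became 1 with close pairs averaged, 9 without embryo-derived replicate 1, and 3 without embryo-derived replicate 2 or 3 or 2D EpiSC replicate 1 or 2. For the enzymes, averaging or leaving out 2D EpiSC replicate 1 or 2 gave 3 instead of 5 in ESC-derived 3D EpiSCs.

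Genes upstream of ATF4 and of other stress branches showed another picture. Of 16 genes for eIF2 kinases, eIF2 and its exchange factor, none was called by limma in ESC-derived 3D EpiSCs (7 had an unadjusted p below 0.05), and 1 fell in embryo-derived 3D EpiSCs. That gene, Impact, an imprinted inhibitor of GCN2 activation, was at 63.4, 45.9 and 45.9 TPM in embryo-derived 3D EpiSCs, against 142, 146 and 179 TPM in 2D EpiSCs (-1.58 ± 0.17, adjusted p = 3.93e-05) and 171, 162 and 137 TPM in ESC-derived 3D EpiSCs. Of 17 ER chaperone and unfolded protein genes, 1 rose, in each 3D culture: Herpud1, which helps to clear ER proteins and is also a target of ATF4 (1.62 ± 0.23 and 1.76 ± 0.23, adjusted p = 2.66e-04 and 1.51e-04). The list medians were 0.03 and -0.12. Of 7 mitochondrial chaperones and proteases none was called by limma in either culture, with 3 at an unadjusted p below 0.05 in each and medians of 0.13 and 0.23. Among 11 other ATF4 targets, Cebpb rose and Ero1l fell in ESC-derived 3D EpiSCs, and 4 rose in embryo-derived 3D EpiSCs (Cebpb, Jdp2, Stc2 and Eif4ebp1), a count that was 1 with close pairs averaged and 2 without embryo-derived replicate 2 or 3.

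**Figure D4:**
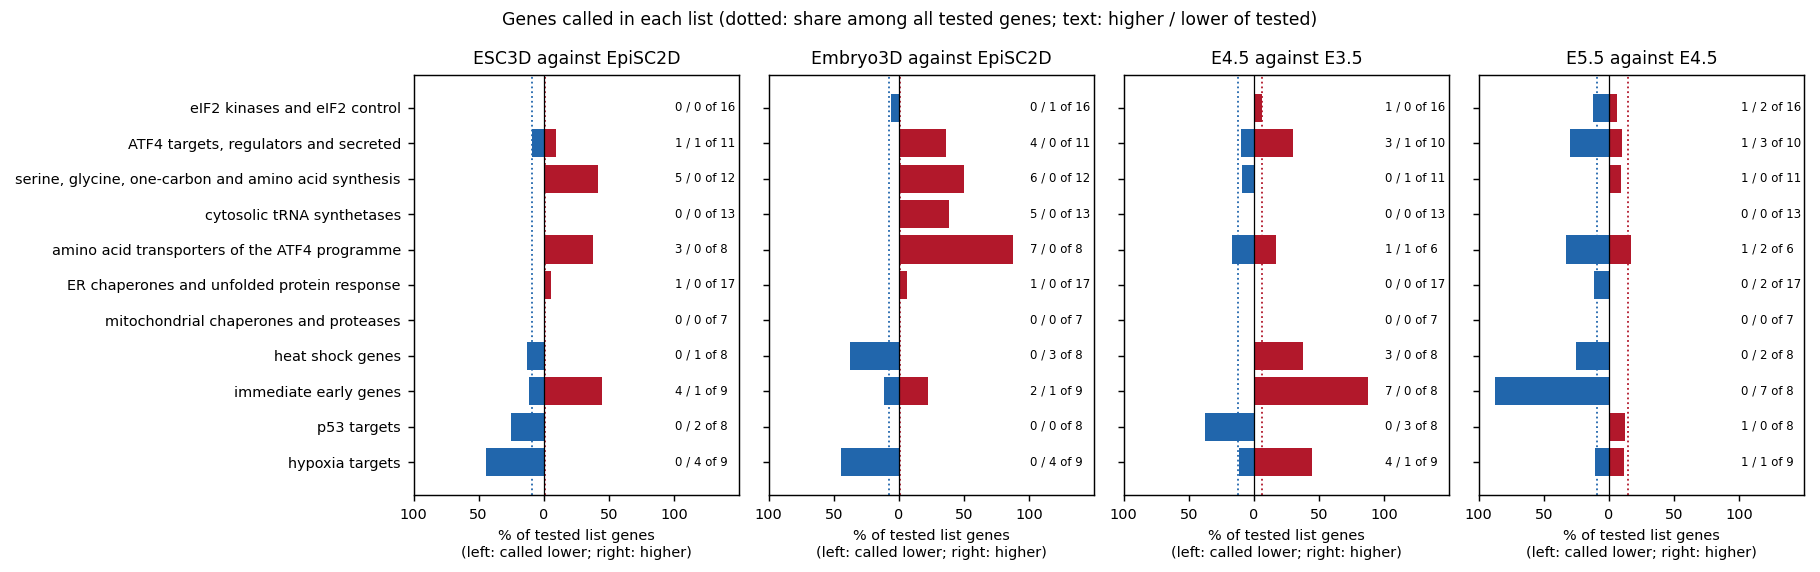
Percent of the tested genes of each list called higher (right, red) or lower (left, blue) in 4 comparisons, with the counts beside the bars and dotted lines at the percent of all tested genes. Amino acid transporters reach 7 of 8 in embryo-derived 3D EpiSCs against 2D EpiSCs (Slc7a11 among them passed the filter only through 3D libraries), and immediate early genes 7 of 8 up at E4.5 and 7 of 8 down at E5.5.

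Other stress lists moved beside the members. Hypoxia targets fell in 4 of 9 tested in each 3D culture against 2D EpiSCs (9.25% and 7.75% of all genes fell), among them Slc2a1, the glucose transporter (-1.95 ± 0.29 and -2.47 ± 0.29 in log2, adjusted p = 3.79e-04 and 7.05e-05). Against EpiLCs the list went mostly the other way: in each 3D culture 4 of the 9 rose, beside 5.33% and 10.5% of all genes, and 1, Pdk1, fell, beside 7.11% and 8.28%. The count of 4 lower than in 2D EpiSCs depended on the fit and on single libraries. In ESC-derived 3D EpiSCs it was 2 with only the compared groups in the fit, 1 with close pairs averaged or without their replicate 1 or 2, and 2 without any 1 library of 2D EpiSCs. In embryo-derived 3D EpiSCs it was 2 with the replicate block, with a pseudocount of 0.1, with no filter, without replicate 2 or 3 or without any 1 library of 2D EpiSCs, 1 with close pairs averaged and 7 without replicate 1. The 4 higher than in EpiLCs were 2 in ESC-derived 3D EpiSCs without their replicate 3 or EpiLC replicate 3. Targets of p53 fell in 2 of 8 in ESC-derived 3D EpiSCs (Cdkn1a and Mdm2, 1 of them with TPM rescaled or without 2D EpiSC replicate 3). Immediate early genes, which handling and growth factors raise within minutes, rose in 4 of 9 tested in ESC-derived and 2 of 9 in embryo-derived 3D EpiSCs against 2D EpiSCs (0.633% and 1.07% of all genes), with Fos at 267, 270.0 and 319 TPM and 453, 199 and 201 TPM against 64.9, 58.6 and 37.4 TPM. Embryo-derived replicate 1, low in most members, was the highest for Fos. In the same list Ier3 fell in both (-1.51 ± 0.55 and -2.55 ± 0.55, adjusted p = 0.0433 and 0.00464), and against EpiLCs 7 of 9 rose in each 3D culture and none fell. Heat shock genes fell in 1 of 8 in ESC-derived, near the 9.25% of all genes, and in 3 of 8 in embryo-derived 3D EpiSCs, beside 7.75%. Hspb1 fell in both (-3.29 ± 0.16 and -3.28 ± 0.16). The part of handling or of oxygen in the levels of Atf3 and Ddit4 was not tested.

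In vivo, the members were highest at E3.5 or E4.5 with the exception of Ddit4, and 8 had their lowest mean at E5.5 to E7.5, Atf5 and Ddit4 being the others. Chac1 was low at every stage: 0.613, 1.08 and 2.10 TPM at E3.5, 3.58, 4.82 and 4.81 TPM at E4.5, 1.25, 0.742 and 1.13 TPM at E5.5, 1.18, 1.66 and 0.594 TPM at E6.5, and 0.937, 0.453 and 0 TPM at E7.5. E4.5 was apart from all other stages. Because Chac1 passed the filter in vivo through the E4.5 libraries and 1 library of E3.5, it had to differ there, and its calls at that stage add nothing to this. Trib3 stayed between 0.943 and 6.96 TPM, with E7.5 apart from the earlier stages. Atf3 reached 11.98, 14.4 and 10.7 TPM at E4.5, against 1.56 to 1.83 TPM at E3.5 and 0.313 to 0.426 TPM at E5.5. Its E7.5 libraries, at 2.62, 2.08 and 2.60 TPM, would alone have passed it through the filter.

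From E3.5 to E4.5, Atf3 (2.31 ± 0.12, adjusted p = 2.59e-09) and Psat1 (1.64 ± 0.12, adjusted p = 8.25e-08) rose, 2 of the 9 members other than Chac1, while 5.88% of all 11880 genes did. Chac1 differed by 1.30 ± 0.27, given without a test. Psat1 went from 54.7, 59.4 and 46.6 TPM to 152, 178 and 177 TPM. In the same step Asns fell from 127, 133 and 126 TPM to 57.1, 63.3 and 61.2 TPM (-1.08 ± 0.09, adjusted p = 2.39e-07) and Atf5 fell from 10.3, 9.58 and 9.94 TPM to 4.51, 4.43 and 1.15 TPM (-1.45 ± 0.28, adjusted p = 6.47e-04), beside 11.9% of all genes. The enzymes Asns and Psat1 thus moved in opposite directions, and libraries of the stages did not overlap for either. With TPM rescaled Asns was at -0.96, and without E4.5 replicate 3 Atf5 was at -0.997, both just short of the required size.

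From E4.5 to E5.5, 4 of the 9 members other than Chac1 fell, beside 9.47% of all genes, and none rose by limma (14.9% of all genes did), the 2 positive differences, of Atf5 and Ddit4, having unadjusted p of 0.583 and 0.694. Libraries were apart downward for 6 of the 9, beside 23.8% of all genes. Atf3 fell by 3.29 ± 0.12 on the log2 scale (adjusted p = 4.35e-11), Ddit3 by 2.42 ± 0.22 (adjusted p = 4.20e-07), Psat1 by 2.25 ± 0.12 (adjusted p = 2.36e-09) and Asns by 1.16 ± 0.09 (adjusted p = 7.49e-08). Chac1 differed by -1.40 ± 0.27, again without a test. Ddit3 had been at 25.2, 26.1 and 28.3 TPM at E3.5 and 19.2, 23.5 and 18.8 TPM at E4.5, and was at 2.00, 4.18 and 3.09 TPM at E5.5. Atf4 went from 257, 271 and 291 TPM to 158, 175 and 160.4 TPM (-0.73 ± 0.08, adjusted p = 4.85e-06). Sesn2 differed by -0.78 ± 0.10 (adjusted p = 1.77e-05). Both had libraries apart but were under the required size. The median over the 9 members was -0.78, and over all tested genes 0.16.

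**Figure D5:**
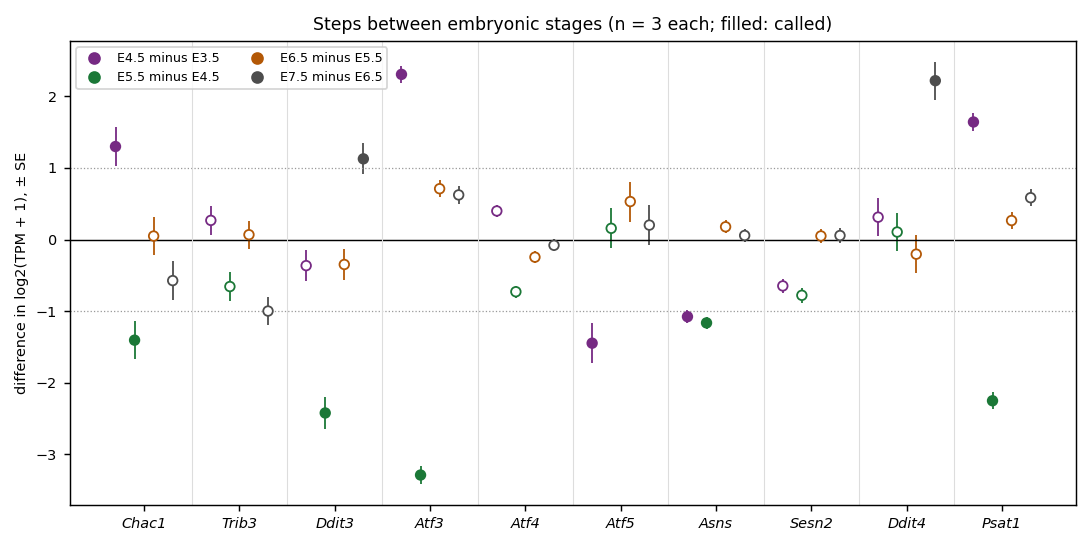
Difference in log2(TPM + 1) of the 10 members between consecutive stages (y axis, bars of 1 SE from limma, 3 libraries a stage), filled where called (for Chac1 at E4.5 the filter fixed this). The step from E4.5 to E5.5 holds the largest falls, -3.29 for Atf3, -2.42 for Ddit3 and -2.25 for Psat1, and the step from E6.5 to E7.5 the rise of Ddit4.

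The steps around E4.5 coincided with a change in preparation. Immediate early genes rose in 7 of 8 tested from E3.5 to E4.5 and fell in 7 of 8 from E4.5 to E5.5. Fos was at 5.55, 6.63 and 5.14 TPM at E3.5, 389.6, 389 and 419 TPM at E4.5 and 2.78, 4.14 and 3.43 TPM at E5.5. Ppp1r15a (GADD34), the phosphatase subunit that reverses eIF2α phosphorylation, was at 25.7, 24.2 and 23.6 TPM, then 108, 103 and 93.3 TPM, then 19.9, 17.5 and 20.9 TPM (2.01 ± 0.14 and -2.33 ± 0.14, adjusted p = 4.98e-08 and 7.56e-09). Of the 16 genes for eIF2 kinases and control of eIF2, 1 was called higher at E4.5, near the 5.88% of all genes. At E5.5, 1 of the 16 was called higher and 2 lower, beside 14.9% and 9.47% of all genes. Heat shock genes rose in 3 of 8 at E4.5. Of 6 amino acid transporters tested there, Slc38a2, an importer, rose by 2.01 ± 0.09 (adjusted p = 4.66e-10) and Slc1a4, a neutral amino acid exchanger, fell by 1.04 ± 0.14 (adjusted p = 3.48e-05). At E5.5, 1 of the 6 rose and 2 fell. Of 10 other ATF4 targets 3 rose and 1 fell at E4.5, and 1 rose and 3 fell at E5.5. Of 11 amino acid synthesis genes 1 fell at E4.5, and at E5.5 1 rose and none fell by limma. Of 13 tRNA charging genes none was called by limma in either step, with 7 and 5 at an unadjusted p below 0.05. Of 17 ER genes none was called at E4.5 by limma, with 10 at an unadjusted p below 0.05, and 2, Herpud1 and Sdf2l1, fell at E5.5 (1 without E4.5 replicate 3 or E5.5 replicate 1 or 3). The summed trophoblast level given above was lower after each step, but Elf5 and Hand1 were highest at E4.5 of these 3 stages. The summed endoderm level was lowest at E4.5. Into E5.5 the means of Ttr (0.911 to 84.8 TPM) and Afp (0 to 81.0 TPM) were higher, and that of Sox7 (9.26 to 6.58 TPM) lower. The part of these cell types in the changes of the members was not tested. RNA of E3.5 and E4.5 was fragmented in the same way, and that of later stages in another. By the methods the mouse line may also have changed in both steps, and the number of embryos in a pool between E4.5 and E5.5. Stage, dissociation and mouse line cannot be told apart in either step, nor fragmentation and pool size from them between E4.5 and E5.5. Fewer cells of a type cannot be told from less RNA per cell.

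From E5.5 to E6.5 no member was called, while 1.2% of all genes were, and 3 had an unadjusted p below 0.05 in limma (26.6% of all genes did). Atf3 went from 0.313, 0.426 and 0.338 TPM to 1.13, 1.60 and 0.983 TPM, a difference of 0.71 ± 0.12 (adjusted p = 0.00263) on a scale that compresses such low levels. From E6.5 to E7.5, Ddit4 rose from 4.74, 6.44 and 4.02 TPM to 24.4, 27.6 and 28.8 TPM (2.22 ± 0.26, adjusted p = 1.51e-05) and Ddit3 from 2.64, 2.87 and 1.20 TPM to 6.77, 4.90 and 6.03 TPM (1.13 ± 0.22, adjusted p = 7.89e-04), beside 10.6% of all genes. The median over all genes rose by 0.31 in this step, and after rescaling, which removes that shift, Ddit3 differed by 0.86 and was not called. Trib3 went from 2.69, 3.99 and 3.09 TPM to 1.02, 0.943 and 1.41 TPM, with libraries apart. It differed by -0.998 ± 0.198 (adjusted p = 9.35e-04), just short of the required size. The hypoxia targets Vegfa and Slc2a1 rose in the same step (1.92 ± 0.18 and 1.64 ± 0.10, adjusted p = 2.20e-06 and 1.62e-08), 2 of 9 tested. Of 4 mesoderm markers, mean levels of Mesp1 (57.3 to 14.1 TPM) and Mixl1 (53.7 to 5.33 TPM) were lower at E7.5 and those of Hand2 (0.514 to 33.3 TPM) and Tbx6 (0.939 to 25.1 TPM) higher, and their part in the change of Ddit4 was not tested.

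Cultures and embryos were sequenced from different kits, poly-A capture in vitro and total RNA depleted of ribosomal cDNA in vivo, so no test was made between them. Ranks within a library are given instead, as median percentiles among the 12593 genes past the filter in all libraries. Chac1 was at percentile 83.3 in ESC-derived and 89.6 in embryo-derived 3D EpiSCs, 17.4 in 2D EpiSCs and 33.3 in EpiLCs, against 5.70 to 33.5 across the stages. Trib3 was at 79.1 and 93.9 in the 3D cultures, 33.1 in 2D EpiSCs and 45.1 in EpiLCs, and at 8.62 to 36.3 in vivo. Atf4 was at 93.4 or above in every group. Ddit3, in contrast, stood higher at E3.5 (66.2) and E4.5 (61.9) than in any culture (28.6 to 54.2). Ddit4 was at 84.7 to 97.2 in all cultures and at 28.3 to 64.9 in vivo. Kit and origin cannot be told apart in these ranks.

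The genes most like Chac1 over the 12 in vitro libraries, by Pearson's r of log2(TPM + 1), were Herpud1 (0.989), Dph1 (0.980), Trib3 (0.967), Atf4 (0.967) and Mrps15 (0.964). Those most like Trib3 were Shmt2 (0.981), Mef2b (0.978), Slc7a11 (0.976), Psat1 (0.971) and Zbed3 (0.969). The libraries form 4 groups and share kit and medium within them, so these values describe group levels more than variation within groups. Chac1 and Trib3 were known to be high in the spheroid cultures among these same libraries when the set was drawn up. A high r between them, or with other genes high in spheroids, was therefore largely fixed beforehand and is given as a description, without a test. Slc7a11 passed the low-value filter only through spheroid libraries, so its r with Trib3 adds nothing. Among the members, Ddit4 was least like Chac1, at -0.17, and Ddit3, Atf5 and Sesn2 were at 0.720, 0.706 and 0.670.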

How the data were processed

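The deposited TPM came from StringTie, run by the authors on GENCODE genes after cutadapt trimming and STAR alignment (mm10). Every library sums to the same total, and neither counts nor depth are kept. Empty cells (948) were taken as 0. Coordinates of promoter windows are RefSeq's on GRCm38.p6. The single-cell and bisulfite samples were not analysed here. The members and lists were chosen with earlier results of these data known. Autosomal protein-coding genes (GENCODE vM21) with a TPM above 2 in at least 3 libraries were compared as log2(TPM + 1) with limma 3.58.1 in R 4.3.3, in 1 fit of the 12 cultures (11541 genes) and 1 of the 15 in vivo libraries (11880 genes), with Benjamini-Hochberg adjustment over all genes of a comparison. The procedure was tested on simulated data. Named genes were all members, up to 4 called genes a list and comparison with the largest change, and the 5 most like Chac1 and Trib3. Tables were made with Python 3.11.15. Alternatives were a pseudocount of 0.1, no filter, median-of-ratios rescaling, only the compared groups, all 27 libraries in 1 fit, a replicate block, an intensity trend, averaged close pairs and leaving out each library.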

Additional observations from a re-analysis of the deposited data

How the results depend on the processing

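Over 10 members and 6 tested comparisons, 758 of 800 alternative values kept direction and side of the threshold, 12 passed it newly, 4 lost it and 26 changed sign, all of these in members called neither before nor after. The 758 include 13 values of Chac1 in each of the steps from E3.5 to E4.5 and from E4.5 to E5.5. The filter fixed those differences, so that they stayed the same adds nothing. The count of called members moved by more than 1.5 times as follows. For embryo-derived 3D EpiSCs against 2D EpiSCs it was 5 with close pairs averaged, for ESC-derived against embryo-derived 3D EpiSCs 2 with all 27 libraries in 1 fit (Trib3 and Atf5), and for E6.5 against E5.5 1 with a pseudocount of 0.1 (Atf3, 1.52). Leaving out a library gave 4 to 6 called members for ESC-derived 3D EpiSCs against 2D EpiSCs and 0 to 3 for ESC-derived against embryo-derived 3D EpiSCs. Trib3 passed the threshold from E6.5 to E7.5 with a pseudocount of 0.1 (-1.46), with rescaling (-1.19) and without E6.5 replicate 1 or 3 or E7.5 replicate 3 (-1.09 to -1.02). The replicate block moved no count of called members past 1.5 times: it gave 6 for ESC-derived 3D EpiSCs against 2D EpiSCs. The libraries share only a number, as deviations of same-numbered libraries correlated at -0.03 on average in vitro and -0.02 in vivo. Signs turned with rescaling in ESC-derived against embryo-derived 3D EpiSCs for Atf4 (0.0487) and Ddit4 (0.0367), in 2D EpiSCs against EpiLCs for Atf4 (-0.0819), at E5.5 against E4.5 for Ddit4 (-0.0220) and at E7.5 against E6.5 for Atf5 (-0.0851), Asns (-0.27) and Sesn2 (-0.25). With close pairs averaged they turned for Ddit3 (0.15) and Ddit4 (0.11) between the 3D cultures. Leaving out a library gave ranges across 0 for Ddit4 between the 3D cultures (-0.77 to 0.26). In 2D EpiSCs against EpiLCs this held for Trib3 (-0.94 to 0.0156), Atf4 (-0.0162 to 0.31), Asns (-0.45 to 0.17) and Psat1 (-0.19 to 0.13). In vivo it held at E5.5 for Atf5 (-0.29 to 0.39) and Ddit4 (-0.29 to 0.35), at E6.5 for Chac1 (-0.12 to 0.25), Trib3 (-0.0566 to 0.27) and Sesn2 (-0.0145 to 0.15), and at E7.5 for Asns (-0.00852 to 0.11). Rescaling lowered the median over all tested genes from 0.31 to 0.01 at E7.5 and from 0.18 to -0.03 in 2D EpiSCs against EpiLCs. It moved the share of lower genes among all called from 50.1% to 35.7% between the 3D cultures, from 25.2% to 37.0% in 2D EpiSCs against EpiLCs and from 15.4% to 34.3% at E7.5. Against 2D EpiSCs, rescaling changed the genes called higher from 73 to 133 in ESC-derived and from 123 to 155 in embryo-derived 3D EpiSCs. Those called lower went from 1068 to 728 and from 895 to 760, so the shares of all genes given above depend on the scaling. The cause was not tested. TPM keep no depth, so precision at low levels, such as Chac1 in vivo, is unknown.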
